A study of Mus musculus with 19 samples.

Results

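Respiratory complex I (NADH:ubiquinone oxidoreductase) was described through its nuclear genes in mouse thymocytes labelled Rptor-/- or WT. Rptor encodes Raptor, the scaffold subunit of the kinase complex mTORC1. Members were the genes whose symbol starts with Ndufa, Ndufb, Ndufc, Ndufs or Ndufv and that were read by a probe set carrying a single gene symbol, 1 probe set per gene. They numbered 34 of the 22180 genes compared, with 15 Ndufa, 8 Ndufb, 2 Ndufc, 6 Ndufs and 3 Ndufv genes, and the 8 Ndufaf assembly factors were kept apart. Mitochondrially encoded subunits were not analysed here. No member was removed for a low signal.

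Rptor-/- cells came from C57BL/6 mice with a CD2-driven Cre recombinase crossed to mice with a loxP-flanked Rptor gene, a Cre expressed across lymphocytes. Their genotype label reads Rptor-/- and their titles read Raptorfl/fl. WT cells came from C57BL/6 mice whose Cre and loxP status, age and sex the labels do not give. In each genotype 3 thymic populations were sorted. Immature single-positive (ISP) cells, which are αβ-committed and have yet to become double-positive, were CD8-positive without CD4 or TCRβ, with 3 Rptor-/- and 4 WT arrays. DN3a cells, double-negative thymocytes before β-selection, were CD25-high without CD44 or CD28, with 3 Rptor-/- and 3 WT arrays. γδ T cells, with 3 Rptor-/- and 3 WT arrays, were gated by absence of Gr1, NK1.1, TCRβ, CD8 and CD4, and no positive γδ marker is named for that gate. From each sample 12 ng of total RNA was amplified and hybridised to 1 Affymetrix array, and the study asked how metabolic signalling bears on the choice between the αβ and γδ fates. The labels do not say whether replicates were separate mice. The limma p-values set a group difference against the scatter of these samples within all groups, and that scatter may be technical.

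Complex I is the entry point of electrons into the respiratory chain. Its matrix arm takes electrons from NADH through a flavin and a chain of iron-sulfur clusters to ubiquinone, and its membrane arm pumps protons. Core subunits carry out the reaction, a surrounding shell of accessory subunits is needed for assembly and stability, and assembly factors such as the Ndufaf proteins join the modules without staying in the finished enzyme. Ndufa4 and Ndufa4l2 match the naming rule, but the Ndufa4 protein is now placed in complex IV and Ndufa4l2 is its relative, so these genes were counted as members and described as a pair of their own. Thymocytes that pass β-selection grow and divide rapidly, and mTORC1 is known to promote expression of mitochondrial proteins in many cells.

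Values are log2 signals as deposited, and a difference is Rptor-/- minus WT on the log2 scale. A gene was called when its limma p, adjusted by Benjamini-Hochberg over all 22180 genes, was under 0.05. The median probe set read 3.80 to 3.88 across the 7 ISP arrays but 6.03 to 6.13 across the remaining 12, so levels of ISP cells were not set against those of the other populations. Signal of the Rptor probe set was lower in Rptor-/- cells of each population, with differences of -0.24 in ISP (limma adjusted p = 0.0384), -0.58 in DN3a (limma adjusted p = 5.98e-04) and -0.30 in γδ T cells (limma adjusted p = 0.0489), which left 84.4%, 66.9% and 81.2% of the WT signal. Calls for Rptor in ISP and γδ T cells were lost in some fits given at the end, and an exact two-sided permutation test gave p = 0.0571 in ISP cells, where 0.0286 is the smallest possible, and p = 0.1, the smallest possible, in each of the others. Whether the probe set covers the deleted exons is not known, and its signal does not measure deletion, so loss of Rptor rests on the labels. All 5 defining markers of DN3a cells that were measured, Il2ra among them, were lower in WT γδ T cells than in WT DN3a cells, with a median difference of -3.48. Of 6 defining markers of γδ T cells 4 were higher there, among them Sox13 (2.78) and Blk (3.75), Cd3e was lower (-0.24) and Il7r was not called (-0.04). Of 4 ISP markers measured, Cd8a and Cd8b1 averaged 11.33 and 10.57 on WT ISP arrays, Ptcra 8.82 and Cd4, which the gate excludes, 6.37.

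The promoters of the 4 members with the smallest p in Rptor-/- ISP cells, Ndufb6, Ndufa1, Ndufc1 and Ndufv2, are shown as examples from the 22 genes called there. Each window runs from 250 bases before to 50 bases after the start of the gene, 5′ to 3′ on the gene's strand, from RefSeq on GRCm38.p6. They lie on the minus strand at chr4:40279372-40279671 (Ndufb6), chrX:37191189-37191488 (Ndufa1), chr3:51408906-51409205 (Ndufc1) and chr17:66101510-66101809 (Ndufv2). Capitals mark matches to 6 motifs of regulators linked to respiratory genes, searched on both strands: CCGGAAG (ETS/GABP), GCATGCGC (NRF1), AAGGTCA (ERR), AAGATGGC (YY1), CACGTG (the E-box read by MYC) and GGGCGG (the GC box).
Ndufb6: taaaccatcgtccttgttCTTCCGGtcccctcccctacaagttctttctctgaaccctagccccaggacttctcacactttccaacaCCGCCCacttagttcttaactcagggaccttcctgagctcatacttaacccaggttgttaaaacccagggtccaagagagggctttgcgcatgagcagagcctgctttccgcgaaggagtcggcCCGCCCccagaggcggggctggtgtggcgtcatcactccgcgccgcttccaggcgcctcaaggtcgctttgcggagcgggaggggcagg
Ndufa1: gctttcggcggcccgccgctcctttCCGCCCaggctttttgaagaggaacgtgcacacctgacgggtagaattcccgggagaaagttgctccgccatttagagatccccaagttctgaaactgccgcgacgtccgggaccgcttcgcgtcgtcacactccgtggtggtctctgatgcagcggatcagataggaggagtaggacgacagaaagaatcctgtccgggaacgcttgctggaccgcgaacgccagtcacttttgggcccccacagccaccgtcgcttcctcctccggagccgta
Ndufc1: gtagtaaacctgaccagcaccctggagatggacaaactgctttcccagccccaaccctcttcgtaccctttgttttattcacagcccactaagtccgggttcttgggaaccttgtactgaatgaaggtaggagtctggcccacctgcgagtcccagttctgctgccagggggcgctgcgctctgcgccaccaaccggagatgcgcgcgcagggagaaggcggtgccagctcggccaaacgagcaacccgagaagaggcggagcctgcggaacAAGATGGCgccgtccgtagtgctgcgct
Ndufv2: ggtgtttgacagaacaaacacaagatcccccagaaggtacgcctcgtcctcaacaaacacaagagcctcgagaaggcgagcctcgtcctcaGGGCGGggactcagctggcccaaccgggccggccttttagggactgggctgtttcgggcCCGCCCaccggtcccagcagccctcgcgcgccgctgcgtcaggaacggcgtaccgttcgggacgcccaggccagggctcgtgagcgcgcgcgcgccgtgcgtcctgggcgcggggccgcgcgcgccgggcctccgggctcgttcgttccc
Ndufb6 held an ETS/GABP match 232 bases before its start and GC boxes 163 and 39 bases before it. Ndufa1 held a single GC box, 225 bases before its start. Ndufc1 held the YY1 letters 23 bases after its start, and Ndufv2 held GC boxes 159 and 100 bases before its start. No motif was shared by all of these windows.

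RefSeq windows were matched for 30 of the 34 members, giving 32 windows of 300 bases because Ndufa5 and Ndufa7 had a pair each, which overlap. YY1 letters stood in 6 of the 32 windows (18.8%), against 2.75% of 32841 mouse promoter windows of the same length. NRF1 letters stood in 3 windows (9.38%, against 2.71%), and ETS/GABP letters in 4 (12.5%, against 8.86%). GC boxes stood in 15 windows (46.9%, against 35.7%), E-boxes in 3 (9.38%, against 7.15%) and ERR letters in 1 (3.13%, against 4.72%). The E-box windows were the overlapping pair of Ndufa7 and that of Ndufv1, and the GC box count takes in both Ndufa5 windows. Counts of E-box and GC box windows are thus higher than counts by gene, and no excess of E-boxes is read from them. Among windows of members called in ISP cells YY1 letters stood in 5 of 22, in Ndufa3, Ndufa9, Ndufb8, Ndufc1 and Ndufs7, and among the other members in 1 of 10, in Ndufs4. These counts are small and describe letters in these windows, with no test of the difference.

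In Rptor-/- ISP cells 22 of the 34 complex I genes were lower than in WT, none was higher and 12 were not called. Over all genes 12.4% were called in either direction and 6.57% lower. The called genes lay between 14.6% and 37.6% below WT (differences of -0.68 to -0.23, limma adjusted p from 3.72e-06 to 0.0376). The median difference of the 34 members was -0.29, against a median of -0.00 over all genes, and 33 of 34 differences were negative. Rptor-/- and WT arrays did not overlap, with Rptor-/- lower, for 26 members, against 8.95% of all genes. Complex I genes are bright on these arrays. Among the 11090 genes above the median mean level 12.5% were called lower and 16.2% did not overlap with Rptor-/- lower, and 32 members were among them. In such bulk samples, fewer cells of a type and less RNA per cell cannot be told apart.

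**Figure D1:**
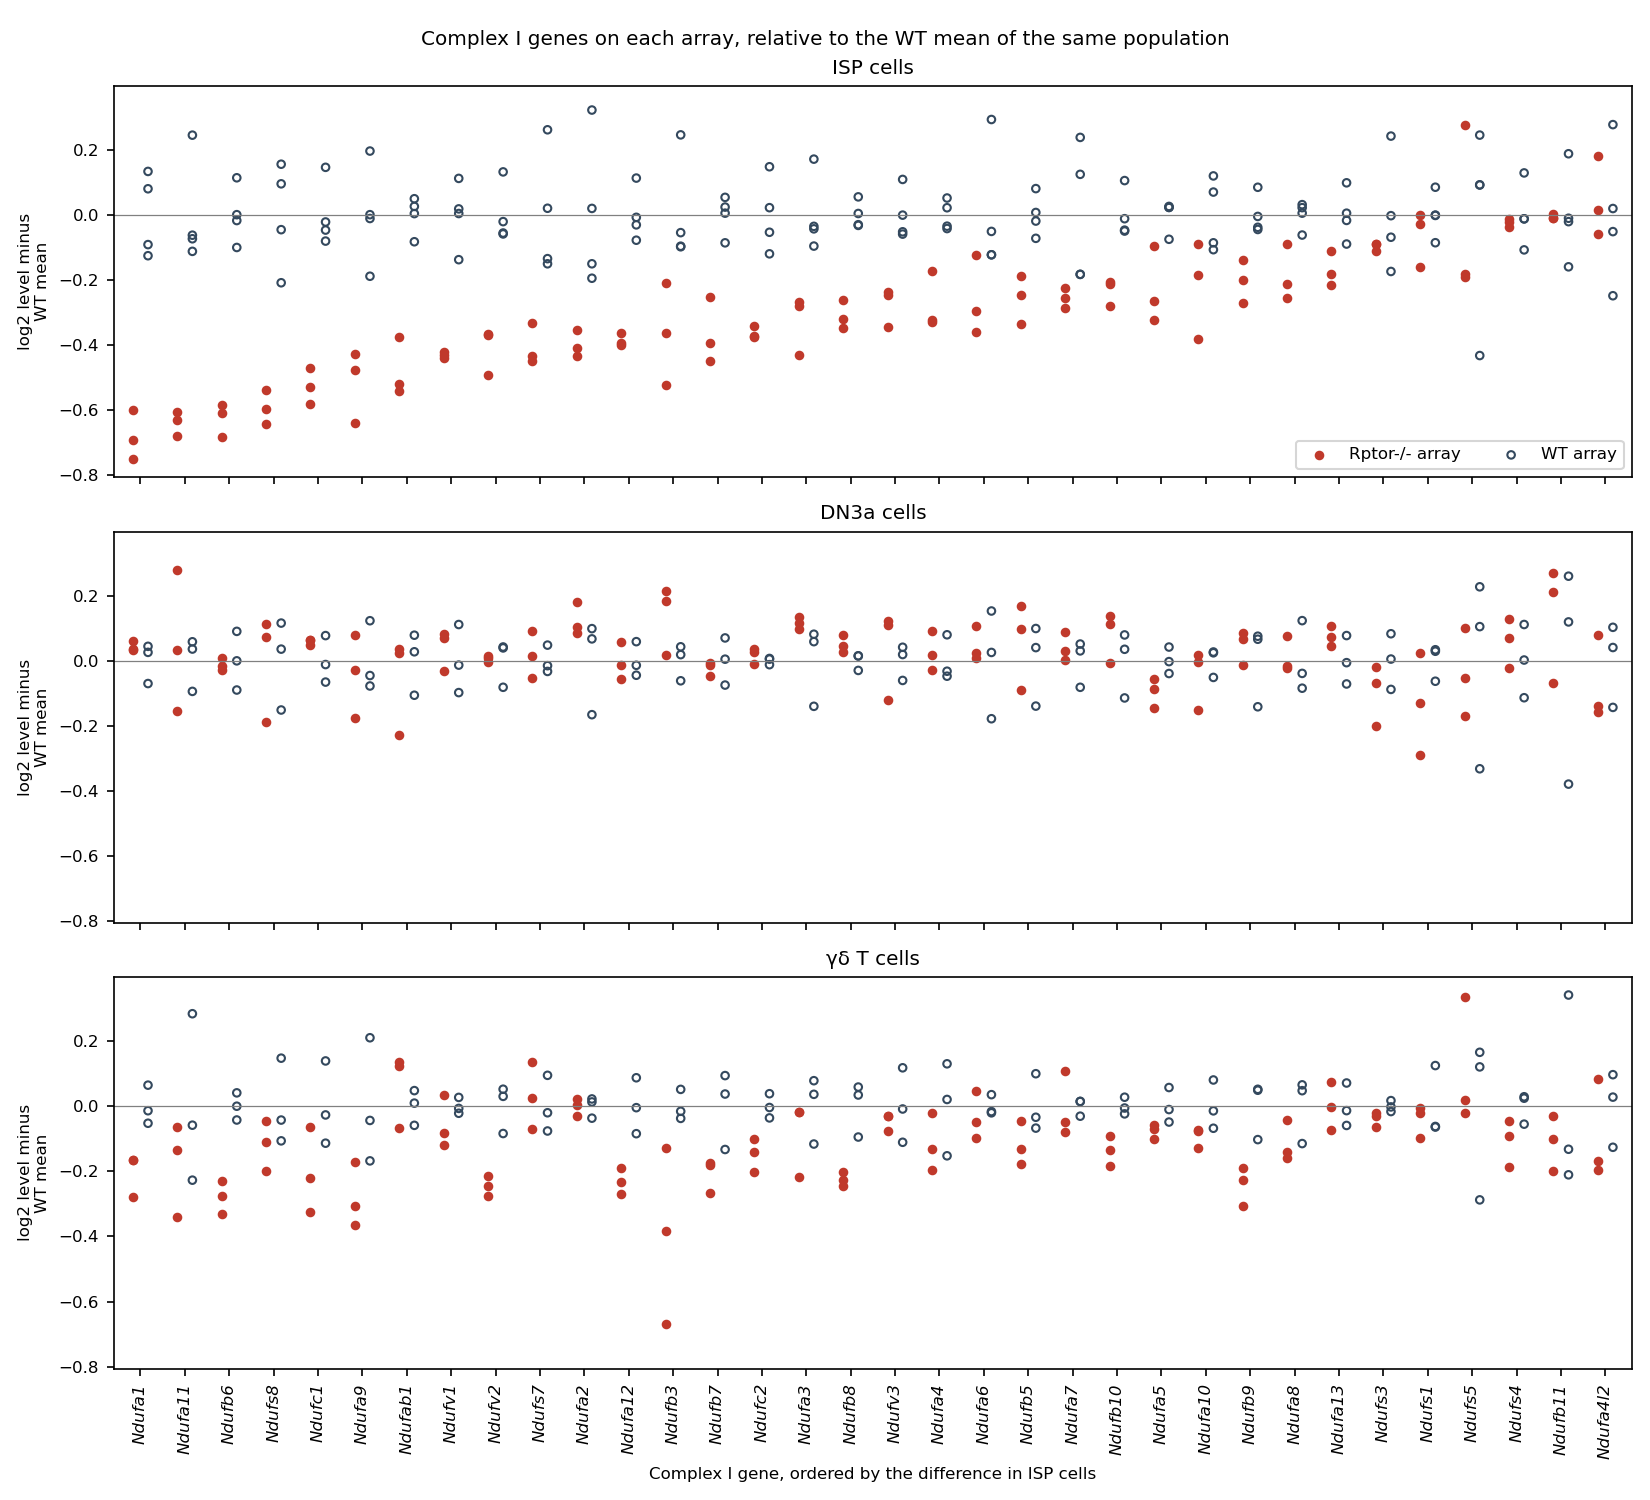
Each point is 1 array's log2 level of a complex I gene minus the WT mean of the same population, with filled points for Rptor-/- and open points for WT arrays, and genes ordered by their difference in ISP cells. In ISP cells the Rptor-/- points of 26 genes lie below every WT point, from Ndufa1 at the left on, while in DN3a cells the points of both genotypes intermix around 0 and in γδ T cells 14 genes are separated.

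The core subunits that receive electrons from NADH came first in the order of roles. Ndufv1, the subunit that binds NADH and the flavin, had 8.05, 8.04 and 8.03 on Rptor-/- ISP arrays, against 8.49, 8.58, 8.47 and 8.33 on WT arrays. All Rptor-/- arrays lay below all WT arrays, and the difference was -0.43 (SE 0.07, limma adjusted p = 3.22e-04). Ndufv2, which carries an iron-sulfur cluster beside it, had 8.62, 8.62 and 8.49 in Rptor-/-, against 8.93, 8.93, 9.12 and 8.97 in WT cells. Its groups did not overlap and its difference was -0.41 (SE 0.07, limma adjusted p = 3.02e-04). Ndufs1, the large iron-sulfur protein of the same module, behaved otherwise. It had 7.61, 7.45 and 7.59 in Rptor-/-, against 7.61, 7.61, 7.53 and 7.70 in WT cells, so the groups overlapped and the difference was -0.06 (SE 0.08, limma adjusted p = 0.781, 95% interval -0.23 to 0.10).

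Next in the path of electrons stand the core subunits of the ubiquinone-binding module. Ndufs8, which holds the pair of iron-sulfur clusters that hand electrons inward, had 8.23, 8.29 and 8.19 in Rptor-/-, against 8.79, 8.93, 8.99 and 8.62 in WT ISP cells. Its groups were separate, at 66.3% of the WT signal, with a difference of -0.59 (SE 0.10, limma adjusted p = 3.12e-04). Ndufs7, which holds the last cluster before ubiquinone, had 8.12, 8.24 and 8.14 in Rptor-/-, against 8.42, 8.59, 8.83 and 8.44 in WT cells. The difference was -0.40 (SE 0.09, limma adjusted p = 0.00391), but it was not called when ISP arrays alone were fitted. Ndufs3, a core subunit of this module without a cluster, had 7.04, 7.02 and 7.04 in Rptor-/-, against 7.06, 6.95, 7.37 and 7.13 in WT cells. WT array 2 lay below the Rptor-/- arrays, and the difference was -0.10 (SE 0.08, limma adjusted p = 0.611). Of the 6 core genes measured, 4 were therefore called lower and Ndufs1 and Ndufs3 were not.

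Accessory genes of the matrix arm were called lower for 5 of 8, with a median difference of -0.27. Ndufa12, an accessory subunit of this arm, had 8.79, 8.76 and 8.75 in Rptor-/-, against 9.12, 9.07, 9.26 and 9.14 in WT ISP cells. The groups were separate by more than the spread within either, and the difference was -0.38 (SE 0.07, limma adjusted p = 4.29e-04). The other called genes were Ndufa9, a reductase-like subunit at the junction of the arms (-0.51, SE 0.10), Ndufa2 (-0.40, SE 0.10), Ndufv3 (-0.28, SE 0.08) and Ndufa5 (-0.23, SE 0.07). Ndufa7 (-0.25) and Ndufa6 (-0.26) were not called, with limma adjusted p of 0.0766 and 0.101. Ndufs4, whose loss in mice gives a fatal encephalopathy, had a difference of -0.02 (SE 0.07).

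Ndufab1, the mitochondrial acyl carrier protein, which also serves fatty acid synthesis and iron-sulfur cluster assembly, had 5.37, 5.51 and 5.35 on Rptor-/- ISP arrays, against 5.89, 5.80, 5.94 and 5.91 on WT arrays. Its groups did not overlap and its difference was -0.48 (SE 0.08, limma adjusted p = 3.59e-04).

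Accessory genes of the membrane arm outside the Ndufb group were called lower for 5 of 9. Ndufa1, a small membrane-spanning subunit needed for assembly, had the lowest difference among members. It had 9.86, 9.96 and 9.80 in Rptor-/-, against 10.46, 10.43, 10.64 and 10.69 in WT ISP cells, which is 62.4% of the WT signal (-0.68, SE 0.07, limma adjusted p = 4.11e-06). Ndufa11, which lies where complex I touches complex III in supercomplexes, had 9.99, 10.01 and 9.94 in Rptor-/-, against 10.51, 10.56, 10.86 and 10.54 in WT cells. Its difference was -0.64 (SE 0.12, limma adjusted p = 9.47e-04), WT array 3 stood above the other WT arrays, and a second Ndufa11 probe set gave -0.72 (SE 0.14).

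The Ndufc genes encode small subunits of the membrane arm. Ndufc1 had 7.37, 7.31 and 7.43 in Rptor-/-, against 7.88, 7.82, 8.04 and 7.85 in WT ISP cells. Ndufc2 had 10.50, 10.47 and 10.47 in Rptor-/-, against 10.79, 10.87, 10.99 and 10.73 in WT cells. Both were separate between genotypes, with differences of -0.53 (SE 0.08, limma adjusted p = 1.17e-04) for Ndufc1 and -0.36 (SE 0.07, limma adjusted p = 7.39e-04) for Ndufc2. Ndufa3 was also called (-0.32, SE 0.08). Ndufa10, Ndufa8 and Ndufa13, the last also known as the cell death regulator GRIM-19, had differences of -0.22, -0.19 and -0.17 with limma adjusted p of 0.0845, 0.109 and 0.119. Ndufs5 had -0.03 (SE 0.17), but its probe set read 3.56 to 4.27 on ISP arrays, close to the median of all probe sets, so little signal was there to compare.

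The Ndufb genes, which encode accessory subunits along the proton-pumping arm, were called lower for 6 of 8, with a median difference of -0.28. Ndufb6, a single-pass membrane subunit, had the smallest p of all members. It had 8.81, 8.79 and 8.71 in Rptor-/-, against 9.38, 9.30, 9.51 and 9.40 in WT ISP cells, a difference of -0.63 (SE 0.07, limma adjusted p = 3.72e-06). The gap between genotypes exceeded the range within each. Ndufb7 (-0.36), Ndufb3 (-0.36), Ndufb8 (-0.31), Ndufb5 (-0.26) and Ndufb10 (-0.23) were also called. Ndufb9 had -0.20 (limma adjusted p = 0.0746), and Ndufb11, an X-linked gene, had -0.01 (SE 0.14). Matrix arm and membrane arm were called at 9 of 14 and 11 of 17 genes, with median differences of -0.33 and -0.31. Ndufa4 was lower (-0.28, SE 0.08, limma adjusted p = 0.0188) and Ndufa4l2, read at 3.03 to 3.56 on ISP arrays, was the only member with a positive difference (0.05, SE 0.11).

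**Figure D2:**
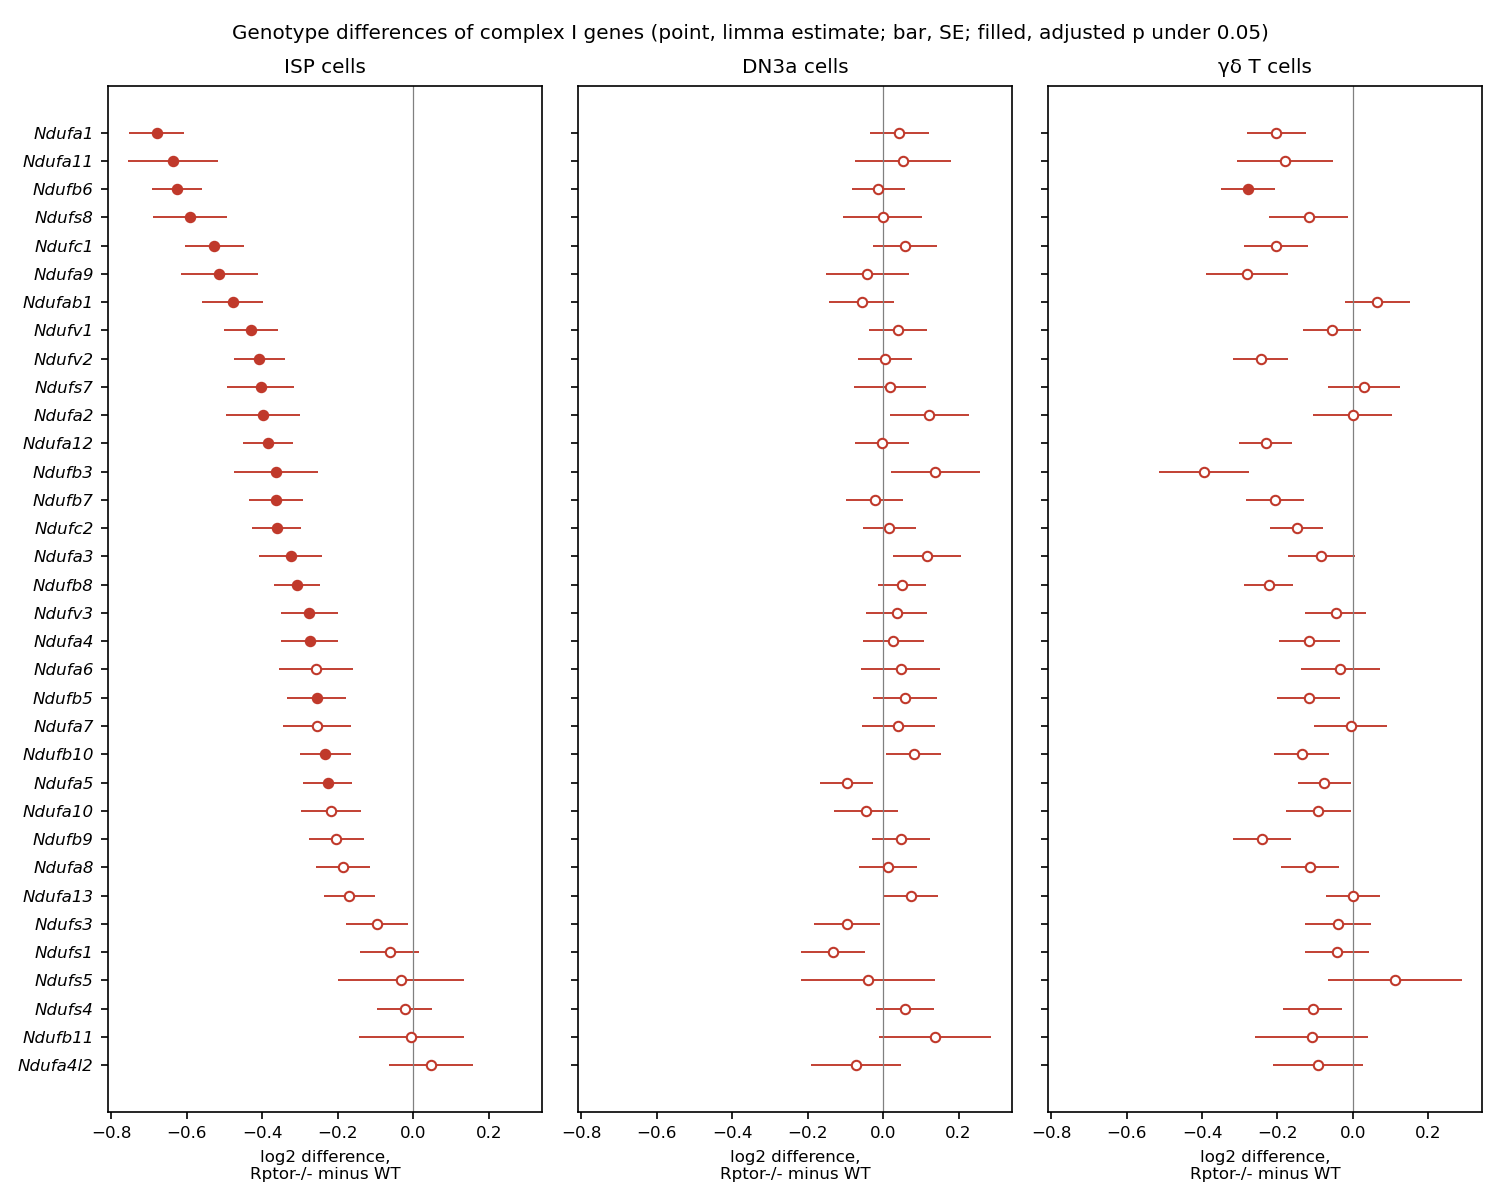
Points are limma's log2 differences, Rptor-/- minus WT, for the 34 complex I genes in each population, bars are standard errors, and filled points passed an adjusted p of 0.05. In ISP cells 22 points are filled, down to -0.68 for Ndufa1, in DN3a cells none is, and in γδ T cells Ndufb6 alone is.

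On ISP arrays the mean over the 34 members was 8.44 to 8.47 in Rptor-/- and 8.70 to 8.88 in WT cells. WT array 3 was the highest WT array for 26 of the 34 members. Without it 18 of the 22 calls remained and the median difference was -0.27. Leaving out each other ISP array kept 17 to 21 of them. Of the 22 calls, 13 held in every one of the 15 other fits and array omissions: those of Ndufa1, Ndufa9, Ndufa11, Ndufa12, Ndufab1, Ndufb6, Ndufb7, Ndufb8, Ndufc1, Ndufc2, Ndufs8, Ndufv1 and Ndufv2. Across the members, the ISP difference and the mean WT level had a Pearson correlation of -0.42 and a Spearman correlation of -0.24 (34 genes on the same arrays, a description only).

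Other gene groups moved on the same ISP arrays. Of 28 S phase genes 12 were lower (median -0.33), with a mean level of 8.63 to 8.83 in Rptor-/- and 8.98 to 9.15 in WT cells, whereas of 28 G2/M genes 4 were higher (median 0.21). Of 5 genes that define DN3a cells 4 were higher, with a mean of 8.30 to 8.41 in Rptor-/- and 7.50 to 7.71 in WT cells. Of 7 markers of mature αβ T cells Il7r and Klf2 were lower, none was higher, and 3 had positive differences, up to 0.54. The list's mean was 5.65 to 5.82 in Rptor-/- and 5.85 to 6.46 in WT cells, where 6.46 was array 4 and the other WT arrays reached 6.04. Of the 6 γδ markers Cd3e was higher and Il7r lower, with a mean of 5.33 to 5.48 in Rptor-/- and 5.50 to 5.89 in WT cells. Of 7 B-cell, 2 erythroid and 8 natural killer cell markers none was called by limma, and 1 of 8 dendritic, 1 of 10 myeloid and 1 of 10 stromal markers was. An unadjusted p under 0.05 was found for 2 natural killer cell markers, beside 4862 of all 22180 genes in ISP cells. The part of these groups in the complex I result was not tested.

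**Figure D3:**
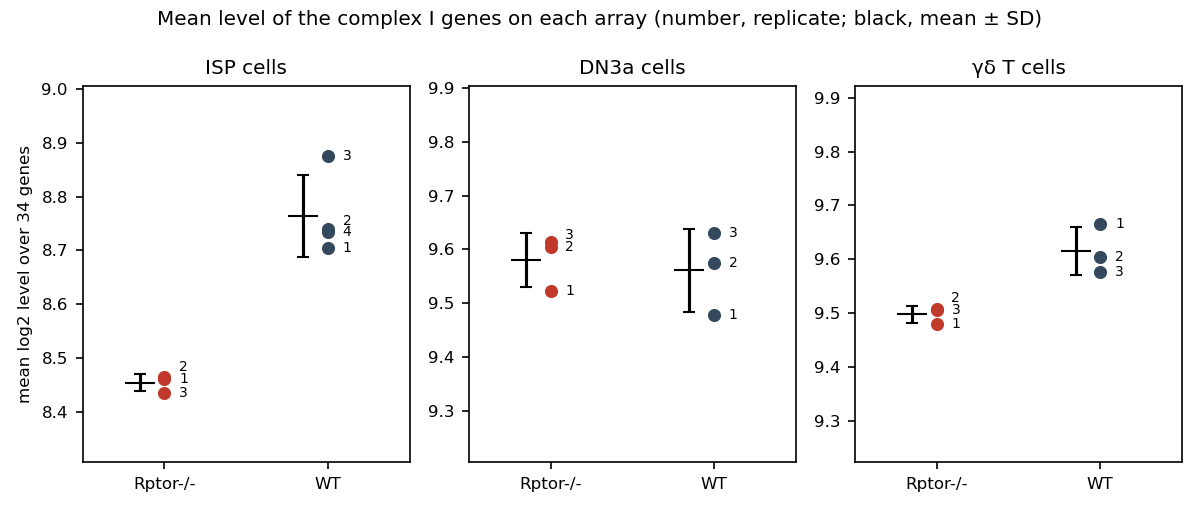
Each point is the mean log2 level over the 34 complex I genes on 1 array, numbered by replicate, with mean ± SD in black, for Rptor-/- (left) and WT (right) arrays, and panels share a span of the log2 scale but not its position. Rptor-/- arrays sit below WT arrays in ISP cells (8.44 to 8.47, against 8.70 to 8.88) and in γδ T cells (9.48 to 9.51, against 9.58 to 9.66), and within their range in DN3a cells.

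In DN3a cells, no complex I gene was called between Rptor-/- and WT by limma, where 0.983% of all genes were called. None had an unadjusted p under 0.05, beside 2340 of all 22180 genes. Differences ran from -0.13 to 0.14 with a median of 0.03, 12 of 34 were negative, and the limma adjusted p was at least 0.647. Ndufs1 had 8.32, 8.48 and 8.64 in Rptor-/-, against 8.55, 8.65 and 8.64 in WT DN3a cells (-0.13, 95% interval -0.31 to 0.04). The groups overlapped. Ndufa5 had 10.35, 10.41 and 10.44 in Rptor-/-, against 10.45, 10.49 and 10.54 in WT cells (-0.10, 95% interval -0.24 to 0.05), and was the member whose Rptor-/- arrays all lay lower. Ndufa3 had 10.56, 10.59 and 10.57 in Rptor-/-, against 10.32, 10.52 and 10.54 in WT cells (0.12, 95% interval -0.07 to 0.30), and lay higher without overlap, as did Ndufb8. These 3 of 34 stand beside 17.1% of all genes without overlap in either direction. Ndufa2 had 11.47, 11.55 and 11.45 in Rptor-/-, against 11.20, 11.46 and 11.43 in WT cells (0.12, SE 0.10).

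The other core genes had DN3a differences nearer 0 than Ndufs1. Ndufv1 had 9.87, 9.97 and 9.98 in Rptor-/-, against 9.80, 9.88 and 10.01 in WT cells (0.04, SE 0.08). Ndufv2 had 10.80, 10.80 and 10.78 in Rptor-/-, against 10.71, 10.83 and 10.83 in WT cells (0.01, SE 0.07). Ndufs8 had 9.12, 9.39 and 9.43 in Rptor-/-, against 9.16, 9.35 and 9.43 in WT cells (-0.00, SE 0.10). In each of these the genotypes overlapped, and for Ndufv1 and Ndufs8 array 1 was the lowest in both. Ndufs7 and Ndufs3 had differences of 0.02 (SE 0.10) and -0.10 (SE 0.09). Rptor-/- array 1 was the lowest of its group for 25 members and WT array 1 of its group for 27. The same arrays were lowest in their groups for the mean of the S phase genes, at 9.28 in Rptor-/- and 9.62 in WT cells, and of the G2/M genes, at 7.98 in Rptor-/- and 8.34 in WT cells. Between genotypes 1 of 28 S phase genes was lower and all 28 differences were negative (median -0.19). No G2/M gene was called, with 26 of 28 negative (median -0.24). Of 5 DN3a markers 2 were higher and all were positive, with a list mean of 11.08 to 11.20 in Rptor-/- and 10.56 to 10.63 in WT cells. Of 6 γδ, 4 ISP, 10 myeloid and 10 stromal markers 1 each was higher and none was called lower. Whether these groups bear on the complex I values was not tested. Intervals at 95% over all members reached -0.41 at their lowest, for Ndufs5, and 0.45 at their highest, for Ndufb11. Moderate differences of such single genes were not resolved. For the members with the smallest p in ISP cells the DN3a intervals were narrower. They were -0.16 to 0.14 for Ndufb6, -0.12 to 0.21 for Ndufa1 and -0.12 to 0.24 for Ndufc1.

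In γδ T cells, Ndufb6 was the only member called between Rptor-/- and WT, beside 3.05% of all genes called in either direction and 1.28% called lower. It had 8.998, 8.941 and 9.043 in Rptor-/-, against 9.231, 9.273 and 9.314 in WT γδ T cells, a difference of -0.28 (SE 0.07, limma adjusted p = 0.0383). The genotypes did not overlap, but the call was lost when any 1 of the 6 γδ arrays was left out. Differences were negative for 31 of 34 members with a median of -0.11. An unadjusted p under 0.05 was found for 11 members, beside 3607 of all 22180 genes. For 14 members all Rptor-/- arrays lay below all WT arrays, against 8.78% of all genes. The limits of the Ndufb6 call with other fits are given at the end.

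The members next in order of p were not called. Ndufb8 had 8.74, 8.77 and 8.73 in Rptor-/-, against 9.01, 9.03 and 8.88 in WT γδ T cells (-0.22, SE 0.06, limma adjusted p = 0.065). Ndufv2 had 10.48, 10.42 and 10.45 in Rptor-/-, against 10.61, 10.74 and 10.72 in WT cells (-0.24, SE 0.07, limma adjusted p = 0.0738). Ndufb3, an Ndufb subunit with the widest Rptor-/- spread of these, had 9.71, 9.17 and 9.46 in Rptor-/-, against 9.83, 9.80 and 9.89 in WT cells (-0.39, SE 0.12, limma adjusted p = 0.0813). In each of these genes the Rptor-/- arrays lay below the WT arrays. The Ndufb3 difference depended on single arrays, at -0.26 without Rptor-/- array 2 (limma adjusted p = 0.358) and -0.53 without Rptor-/- array 1 (limma adjusted p = 0.0188).

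Core genes other than Ndufv2 differed less in γδ T cells. Ndufv1 had 9.79, 9.75 and 9.91 in Rptor-/-, against 9.90, 9.87 and 9.85 in WT cells (-0.06, SE 0.08). Ndufs8 had 9.15, 9.24 and 9.30 in Rptor-/-, against 9.49, 9.30 and 9.24 in WT cells (-0.12, SE 0.10). These groups overlapped. Ndufs1, Ndufs3 and Ndufs7 had differences of -0.04, -0.04 and 0.03. The 14 members without overlap included 6 of 8 Ndufb genes, 3 of 8 matrix arm accessory genes, 3 of 9 other membrane arm genes and 2 of 6 core genes. Whether these shares differ was not tested, and 11 of 17 complex IV genes were likewise separate with Rptor-/- lower, beside the 8.78% of all genes. Second probe sets of Ndufa8 and Ndufa11 gave 0.03 and 0.09 where the main ones gave -0.11 and -0.18, so direction differed between probe sets for these genes. Over all genes, 58.1% of γδ calls were higher in Rptor-/-, and 74.9% were after each array was centred on its median.

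On γδ arrays other gene groups moved as well. Of 28 S phase genes 21 were lower (median -0.59), with a mean level of 8.62 to 8.87 in Rptor-/- and 9.24 to 9.30 in WT cells. Of 28 G2/M genes 14 were lower (median -0.68), with 7.92 to 8.36 in Rptor-/- and 8.61 to 8.94 in WT cells. Of 4 ISP markers Cd8a and Cd8b1 were lower, with a list mean of 6.24 to 6.45 in Rptor-/- and 6.83 to 7.01 in WT cells. Of 8 natural killer cell markers Klre1 (-0.50) and Gzma (-0.37) were lower and none was higher, but 3 had positive differences, up to 0.51. As many were separate with Rptor-/- higher as lower, 2 each, and the list mean was 7.19 to 7.36 in Rptor-/- and 7.32 to 7.43 in WT cells. Of 5 DN3a markers Dtx1 was higher, with a list mean of 7.78 to 8.16 in Rptor-/- and 7.61 to 7.73 in WT cells. Means of erythroid markers also lay apart, at 5.74 to 5.81 in Rptor-/- and 5.58 to 5.66 in WT cells. Those of myeloid markers were 5.73 to 5.87 in Rptor-/- and 5.89 to 6.03 in WT cells, and those of B-cell markers 5.543 to 5.716 in Rptor-/- and 5.724 to 5.781 in WT cells. None of these 2 erythroid, 10 myeloid and 7 B-cell markers was called by limma, with 1, 2 and 3 of them at an unadjusted p under 0.05. Their part in the complex I values was not tested.

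Whether the genotype difference itself differed between populations was tested as an interaction in the same fit. ISP arrays appear from their medians to have been normalized apart from DN3a and γδ arrays, which the labels do not state. In both interactions with ISP cells the population and the array set therefore cannot be told apart. The ISP difference was lower than the DN3a difference for 13 of 34 members, beside 4.12% of all genes. They were led by Ndufa1 (-0.72, SE 0.11, limma adjusted p = 5.52e-04), Ndufb6 (-0.61, SE 0.10, limma adjusted p = 8.13e-04) and Ndufc1 (-0.59, SE 0.12, limma adjusted p = 0.00423). In DN3a cells Ndufa1 had 11.86, 11.88 and 11.86 in Rptor-/-, against 11.75, 11.87 and 11.85 in WT arrays. Ndufb6 had 9.33, 9.36 and 9.34 in Rptor-/-, against 9.27, 9.36 and 9.45 in WT arrays. Ndufc1 had 8.33, 8.35 and 8.35 in Rptor-/-, against 8.27, 8.22 and 8.36 in WT arrays. None of these separated by genotype in DN3a cells, while all did in ISP cells. The others were Ndufv1, Ndufv2, Ndufs8, Ndufb8, Ndufa11, Ndufa12, Ndufc2, Ndufa2, Ndufa3 and Ndufab1, at -0.36 to -0.69. The count was 8 under quantile normalization across all arrays, and 8 without DN3a WT array 1. Of the 13 calls, 4 held in all 19 other fits and array omissions, those of Ndufa1, Ndufb6, Ndufc1 and Ndufv1. Those of Ndufab1 and Ndufa3 were lost in 11 and 8 of the 19.

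The ISP difference was lower than the γδ difference for 4 of 34 members, beside 3.63% of all genes. Ndufab1 (-0.54, SE 0.12, limma adjusted p = 0.00923) had 6.74, 6.75 and 6.55 in Rptor-/-, against 6.67, 6.63 and 6.56 in WT γδ T cells. Ndufa1 (-0.48, SE 0.11, limma adjusted p = 0.0116) had 11.91, 11.79 and 11.91 in Rptor-/-, against 12.14, 12.06 and 12.02 in WT γδ T cells. In Ndufab1 the γδ groups overlapped, and in Ndufa1 the Rptor-/- arrays lay lower, by less than in ISP cells. The Ndufab1 probe set read 6.55 to 6.75 on γδ arrays, little above the median probe set of DN3a and γδ arrays (6.03 to 6.13). Whether this weak γδ signal bears on its interaction was not tested. Ndufv1 (-0.37, SE 0.10, limma adjusted p = 0.0402) and Ndufb6 (-0.35, SE 0.10, limma adjusted p = 0.0411) completed the count. It fell to 1, Ndufab1, under quantile normalization across all arrays, and to 2 without any of 7 single arrays, ISP Rptor-/- 1, 2 and 3, ISP WT 3, γδ Rptor-/- 3 and γδ WT 2 and 3. Of the 4 calls only that of Ndufab1 held in all 19 other fits and array omissions. Those of Ndufb6 and Ndufv1 were lost in 13 and 12 of the 19.

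The γδ difference was not called against the DN3a difference for any member by limma, beside 0.6% of all genes. An unadjusted p under 0.05 was found for 9 members, beside 2063 of all 22180 genes. The smallest p belonged to Ndufb3 (-0.53, SE 0.17, limma adjusted p = 0.248), Ndufb8 (-0.27, SE 0.09, limma adjusted p = 0.295) and Ndufb9 (-0.29, SE 0.11, limma adjusted p = 0.39). In DN3a cells Ndufb3 had 10.12, 10.14 and 9.95 in Rptor-/-, against 9.87, 9.97 and 9.95 in WT arrays. Ndufb9, which belongs to the membrane arm, had 10.56, 10.52 and 10.44 in Rptor-/-, against 10.80, 10.80 and 10.65 in WT γδ T cells. Across the 34 members, the ISP and γδ differences, which share no arrays, had a Pearson correlation of 0.40 and a Spearman correlation of 0.39, and the ISP and DN3a differences -0.15 and -0.07. These are descriptions over genes, which are not independent.

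WT cells alone were compared between WT γδ T cells and WT DN3a cells, whose array medians fall in a common range. Of the 34 members 4 were higher in γδ T cells, 3 were lower and 27 were not called, beside 25.1% of all genes called. Ndufv3, an accessory subunit at the NADH end, had 8.63, 8.86 and 8.73 in WT γδ T cells, against 8.32, 8.24 and 8.34 in WT DN3a cells (0.44, SE 0.08, limma adjusted p = 2.77e-04). Ndufa12 had 10.23, 10.32 and 10.15 in WT γδ T cells, against 10.57, 10.65 and 10.54 in WT DN3a cells (-0.36, SE 0.07, limma adjusted p = 5.65e-04). Ndufb8 had 9.01, 9.03 and 8.88 in WT γδ T cells, against 8.75, 8.75 and 8.71 in WT DN3a cells (0.23, SE 0.06, limma adjusted p = 0.00937). The groups did not overlap in any of these, and calls of Ndufv3 and Ndufa12 held in all 13 other fits and array omissions. Ndufa1 (0.25) and Ndufa4 (0.24) were also higher, and Ndufa9 (-0.37) and Ndufab1 (-0.29) lower. The count was 4 without γδ WT array 1 and 3 without γδ WT array 2.

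Of the 8 Ndufaf assembly factor genes, 4 were lower in Rptor-/- ISP cells and none was higher, beside 6.57% of all genes called lower. Ndufaf4, a factor of the ubiquinone module, had 7.05, 7.10 and 7.17 in Rptor-/-, against 7.80, 7.64, 8.04 and 7.76 in WT ISP cells (-0.70, SE 0.08, limma adjusted p = 1.02e-05). Ndufaf6, which acts early in assembly, had 5.67, 6.02 and 5.86 in Rptor-/-, against 6.53, 6.58, 6.82 and 6.60 in WT cells (-0.78, SE 0.10, limma adjusted p = 3.34e-05). Ndufaf2, a relative of Ndufa12 that holds its place until late in assembly, had 7.52, 7.54 and 7.24 in Rptor-/-, against 8.27, 8.33, 8.54 and 8.39 in WT cells (-0.95, SE 0.13, limma adjusted p = 3.51e-05). All of these lay 38.6% to 48.3% below WT, without overlap. Ndufaf8, the partner of Ndufaf5, had 6.60 to 6.92 in Rptor-/-, against 6.98 to 7.79, with array 3 the highest, in WT cells (-0.53, SE 0.14, limma adjusted p = 0.0183). Its difference was -0.34 without WT array 3, and its call was lost without Rptor-/- array 1 or 3 (limma adjusted p up to 0.095) and when ISP arrays alone were fitted. Ndufaf5 (-0.15), Ndufaf7 (-0.20), Ndufaf1 (-0.13) and Ndufaf3 (0.04) were not called.

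No Ndufaf gene was called in DN3a cells, where none had an unadjusted p under 0.05, or in γδ T cells, where Ndufaf2 and Ndufaf5 did, by limma. Ndufaf2 had 6.82, 6.91 and 7.04 in Rptor-/-, against 7.33, 7.21 and 7.43 in WT γδ T cells (-0.40, SE 0.14, limma adjusted p = 0.126). Ndufaf5, a factor that modifies Ndufs7, had a γδ difference of 0.18 (limma adjusted p = 0.23), with Rptor-/- higher on all arrays. In DN3a cells the smallest p were those of Ndufaf3 (0.16, SE 0.10) and Ndufaf1 (0.16, SE 0.12). Ndufaf4 and Ndufaf6 were positive in γδ T cells, at 0.16 and 0.15. Both interactions of ISP with γδ T cells were called, beside 3.63% of all genes called lower. They were -0.86 (SE 0.12, limma adjusted p = 3.38e-04) for Ndufaf4 and -0.94 (SE 0.15, limma adjusted p = 9.92e-04) for Ndufaf6. Against DN3a cells the ISP difference was called for Ndufaf2 (-1.06), Ndufaf4 (-0.68) and Ndufaf6 (-0.67), beside 4.12% of all genes called lower. These assembly factors differed between populations in the same direction as the 13 subunit genes.

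Genes that supply or work beside complex I were counted for comparison, beside 6.57% of all genes called lower in Rptor-/- ISP cells. Of 13 other assembly factors 5 were lower in Rptor-/- ISP cells (median -0.26), among them Dmac1, a factor of the distal membrane arm (-0.64), Chchd4, an import factor of the intermembrane space (-0.64), and Tmem70, which acts on the membrane arm and ATP synthase (-0.32). Of 14 iron-sulfur cluster genes 6 were lower (median -0.22), including the scaffold Iscu (-0.67), the glutaredoxin Glrx5 (-0.59) and the chaperone Hspa9 (-0.42). Of 12 ubiquinone genes 3 were lower (median -0.11): Coq10b (-0.52), Coq7 (-0.58) and Coq4 (-0.26). Of 8 complex II genes, which hand electrons from succinate to ubiquinone, 4 were lower (median -0.26), with Sdhb at -0.51, Sdhd at -0.53 and Sdhaf4 at -0.59. None of these genes was called by limma in DN3a or γδ T cells, where at most 1 gene of each list had an unadjusted p under 0.05.

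Among 19 regulators of respiratory chain genes, Gabpb2, a subunit of the ETS-family factor GABP, was higher in Rptor-/- ISP cells (0.53, SE 0.08, limma adjusted p = 1.63e-04) and 4 were lower, including Ssbp1, which coats mitochondrial DNA (-0.44), and Pprc1, a PGC-1-related coactivator (-0.43). In γδ T cells Pprc1 was higher (0.43, SE 0.10, limma adjusted p = 0.0236), as was Myc (0.42, SE 0.11, limma adjusted p = 0.0345). None of the 19 was called by limma in DN3a cells, where 2 had an unadjusted p under 0.05. In ISP cells 64.7% of complex I genes were lower, while complexes III, IV and ATP synthase had 22 of 43 genes lower and 2 higher (51.2% lower, median -0.25). These 43 genes were taken by symbol pattern, so the share depends on what the pattern takes in. They include Uqcrh-ps1 and Atp5c1-ps, whose symbols mark pseudogenes and which were not called. Both higher calls were Cox6b2 (0.59) and Cox7a2l (0.29), while Cox6a2 (-1.06) and Cox7a1 (-0.85) were among those lower. The genes of mitochondrial ribosomal proteins, which build the ribosome that makes the mitochondrially encoded subunits, had 52 of 71 lower (73.2%, median -0.39). In γδ T cells 2 of the 43 and 1 of the 71 were lower, and in DN3a cells none was called by limma, with 1 of the 43 and 2 of the 71 at an unadjusted p under 0.05. Whether these shares differ from that of complex I was not tested.

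**Figure D4:**
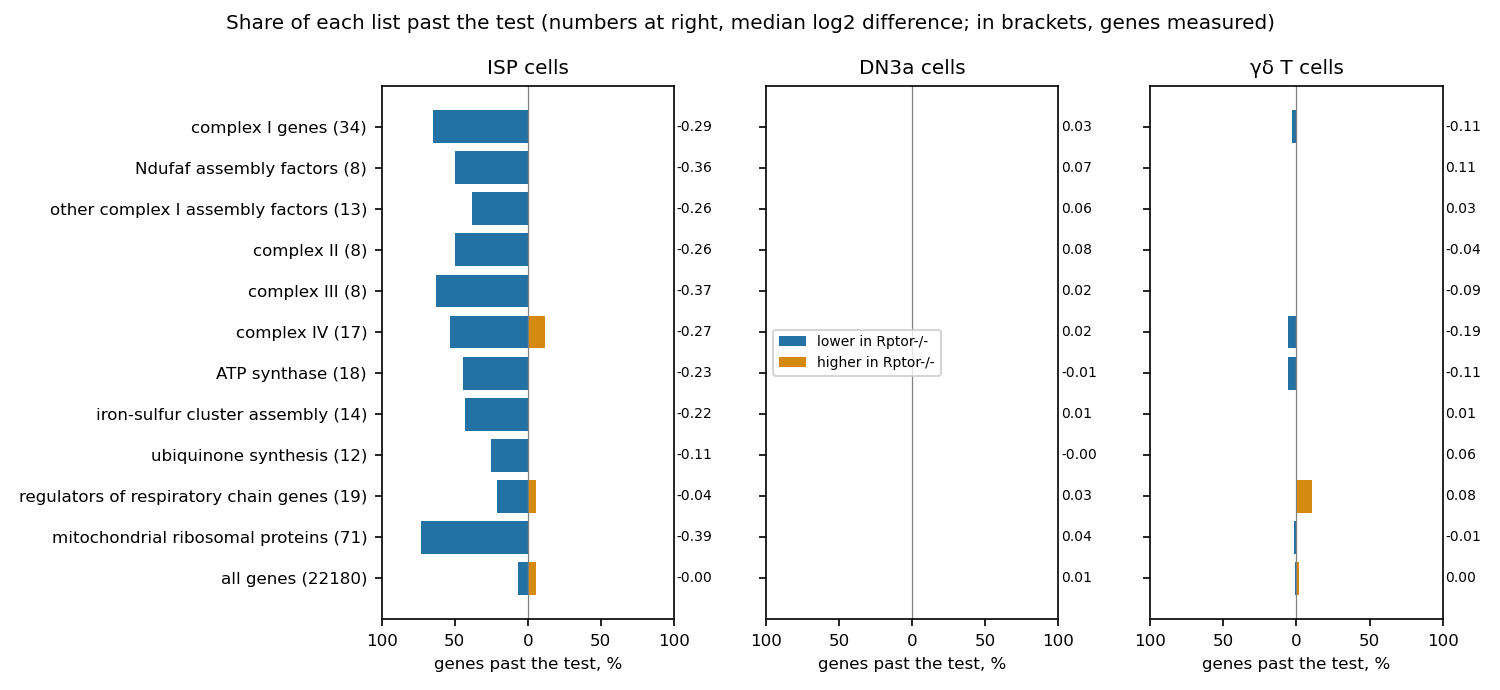
Bars give the share of each list's measured genes called lower (left of 0) or higher (right of 0) in Rptor-/- against WT in each population, with list sizes in brackets and median log2 differences at the right of each panel. In ISP cells 64.7% of complex I genes and 73.2% of mitochondrial ribosomal protein genes are called lower, against 6.57% of all genes, while bars in DN3a and γδ T cells are short or absent.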

How the data were processed

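RNA of 19 sorted mouse thymocyte samples was hybridised to Affymetrix arrays. The deposited values are log2 expression values per probe set, made by the authors with RMA in Partek 6.6, per the submitters' processing notes. RMA corrects background, quantile-normalizes and summarises probes. Array medians fall into 2 sets, the ISP arrays and the others, which may have been normalized apart. No further normalization and no signal filter was applied, and array number limits precision.

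Of 41345 probe sets, 23521 had 1 symbol, 1814 several and 16010 none in the annotation used. The last 2 kinds were left out, among them 6 probe sets with several Nduf or neighbouring symbols. Symbols of 23328 probe sets were taken from RefSeq (GRCm38.p6) by gene identifier, whether or not this changed them. Each of 1082 genes with several probe sets was represented by the brightest over all arrays, as were 37 probe sets for the 34 members.

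Groups came from sample titles. Genotype contrasts, 3 interactions and WT γδ against WT DN3a were fitted with limma 3.58.1 in R 4.3.3 as 6 group means over 19 arrays, p-values were adjusted over 22180 genes by Benjamini-Hochberg, and the script was tested on simulated data. Figures used matplotlib 3.10.9 in Python 3.11.15. Members and lists were chosen with earlier results of these data known, from textbook knowledge. Lists of complex III, complex IV, ATP synthase and mitochondrial ribosomal proteins were taken by symbol pattern, with every measured gene kept. Array values are given for core subunits, for the 10 members with the smallest p in ISP cells, the 4 in each other population and the 3 in each further contrast, up to 3 genes are named per other list, and Ndufaf genes are named by call and p. Alternatives covered scaling, probe set choice, the variance prior, the arrays fitted, a replicate block and leaving out each array.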

Additional observations from a re-analysis of the deposited data

Results flagged for a closer look

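On the 4 WT ISP arrays, 3 of 42 complex I and Ndufaf genes had an array standing apart by a gap to its nearest neighbour above the 95% limit for the range of 4 values, where chance gives about 5% of genes. For Ndufa11, WT array 3 read 10.86 against 10.51 to 10.56 on the others (gap over range 0.861). For Ndufb3, the same array read 8.42 against 8.07 to 8.11 (0.874). For Ndufa5, WT array 4 read 9.34 against 9.44 to 9.45 (0.968).

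Genotype differences, Rptor-/- minus WT, differed between populations by limma's interaction test for 13 complex I genes between ISP and DN3a cells. The ISP difference was the lower one, by -0.72 for Ndufa1, -0.69 for Ndufa11, -0.61 for Ndufb6, -0.59 for Ndufs8, -0.59 for Ndufc1, -0.52 for Ndufa2, -0.47 for Ndufv1, -0.44 for Ndufa3, -0.42 for Ndufab1, -0.41 for Ndufv2, -0.38 for Ndufa12, -0.38 for Ndufc2 and -0.36 for Ndufb8. Among assembly factors the values were -1.06 for Ndufaf2, -0.68 for Ndufaf4 and -0.67 for Ndufaf6. Between ISP and γδ T cells 4 complex I genes differed, at -0.54 for Ndufab1, -0.48 for Ndufa1, -0.37 for Ndufv1 and -0.35 for Ndufb6, with -0.86 for Ndufaf4 and -0.94 for Ndufaf6. Only 4 of the 13 complex I calls against DN3a cells and 1 of the 4 against γδ T cells held in all 19 other fits and array omissions.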

How the results depend on the processing

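Under the alternatives run, the ISP count of 22 was 16 to 26 and its median -0.32 to -0.23, the DN3a count stayed at 0, and no direction of a called value was reversed. The γδ count of 1 was 0 with arrays centred on their medians, with a replicate block, with only the arrays of the same set and with the population alone. It was 5 with quantile normalization across all arrays, with only genes above the median mean and with an intensity trend in the variance prior. It was 0 to 1 with each array left out. The ISP minus DN3a count of 13 was 8 with quantile normalization and 8 with the replicate block, and 8 to 15 with each array left out. The ISP minus γδ count of 4 was 1 with quantile normalization and 2 to 5 with each array left out. The WT γδ against WT DN3a count of 7 was 4 with the replicate block and 3 to 9 with each array left out. Causes of these shifts were not tested. Same-numbered arrays of the genotypes had deviations correlated at 0.10, 0.03 and -0.01 in ISP, 0.24, 0.01 and 0.17 in DN3a and -0.10, -0.00 and -0.02 in γδ T cells. In DN3a cells unlike-numbered arrays had -0.25 to 0.11, and whether equal numbers mark a shared batch there was not tested. Numbers were not taken as pairs in the main fit, and the block changed no other count by over 1.5 times. The Rptor difference was -0.31 to -0.18 in ISP and -0.33 to -0.27 in γδ T cells with each array left out, and the γδ call was lost each time, the ISP call without Rptor-/- 1 or 2 or WT 1, 2 or 4. The Rptor call was also lost in both populations with the replicate block, with only the arrays of the same set and with the population alone, and in γδ T cells after median centring.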
